A study of Rattus norvegicus with 10 samples.

Results

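The miR-17/92 cluster and its paralog cluster miR-106b/25 were followed in small RNA libraries from the tissue of arthritic rats. The members are the 9 main mature arms, miR-17-5p, miR-18a-5p, miR-19a-3p, miR-19b-3p, miR-20a-5p and miR-92a-3p of miR-17/92 and miR-106b-5p, miR-93-5p and miR-25-3p of miR-106b/25, found by their names among the 723 mature miRNAs listed. All 9 were among the 359 miRNAs that reached 1 cpm (1 count per 1000000 reads) or more in no fewer than 5 of the 10 libraries and so entered the test. The animals were female Wistar rats, and in every group arthritis had been induced with collagen (CIA), and their age is not given in the sources used here. CIA_B rats were sampled before any therapy, MS_E and MS_A rats 1 h and 34 days into mechanical stimulation of the skin with a twirled needle, given in short sessions (called acupuncture in the sample labels), and PLA_E and PLA_A rats at the same times under placebo, a peritoneal injection of saline. Each of the 5 groups holds 2 libraries, numbered 1 and 2. The study compares each arm with the animals before therapy and the arms with each other. The labels name sub-epidermal muscle, the study describes subcutaneous tissue with its muscle, and the text of the series also speaks of blood. Nothing states whether the libraries of a group came from separate rats, so p-values measure the spread between these libraries, which may be technical. The needled arm was stimulated through the skin and the placebo arm was injected elsewhere, so the comparison of the arms does not separate needle, site and saline.

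miRNAs of these clusters are cut from shared primary transcripts, so that 1 transcription unit yields several mature miRNAs, each of which represses messages that carry a match to its seed, bases 2 to 8 of the miRNA. The miR-17/92 transcript is activated by MYC and is known for promoting proliferation and survival, in part by repression of BIM. It is prominent in dividing progenitors and lymphocytes and less so in differentiated muscle. miR-106b/25 lies within Mcm7, a gene of DNA replication, and represses the cell cycle inhibitor p21. Levels of mature arms from 1 transcript can still differ, since processing and stability act on each arm.

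The mature sequences of all 9 members were found in RefSeq (GRCr8) and are shown because their seeds divide them into the families by which the results are read. Capitals mark the seed. The 4 members of the miR-17 family share the seed AAAGUGC:
rno-miR-17-5p: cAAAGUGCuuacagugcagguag
rno-miR-20a-5p: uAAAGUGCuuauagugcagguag
rno-miR-106b-5p: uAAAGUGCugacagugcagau
rno-miR-93-5p: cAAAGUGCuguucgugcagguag
The seed of miR-18a-5p, AAGGUGC, is its own among the members:
rno-miR-18a-5p: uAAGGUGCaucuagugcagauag
Both miR-19 arms share the seed GUGCAAA:
rno-miR-19a-3p: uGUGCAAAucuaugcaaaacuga
rno-miR-19b-3p: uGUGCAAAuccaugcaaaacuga
The remaining members, together with the relatives miR-363-3p, miR-92b-3p and miR-32-5p, share the seed AUUGCAC:
rno-miR-92a-3p: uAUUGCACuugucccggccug
rno-miR-25-3p: cAUUGCACuugucucggucuga
rno-miR-363-3p: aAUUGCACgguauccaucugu
rno-miR-92b-3p: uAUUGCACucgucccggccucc
rno-miR-32-5p: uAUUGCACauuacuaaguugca

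In GRCr8 the 6 hairpins of miR-17/92 lie on the plus strand at chr15:98587848-98588632, within 785 bases, and the 3 of miR-106b/25 on the minus strand at chr12:22156641-22157134, within 494 bases. A further related cluster of 5 hairpins lies on the minus strand at chrX:137342777-137343647 and carries second copies of miR-17-5p, miR-19b-3p and miR-92a-3p with the same mature sequence. miR-19a-3p and miR-19b-3p differ at 1 base (U11C, counted from the 5′ end, the base of miR-19a-3p first), and miR-17-5p and miR-20a-5p at 2 bases (C1U and C12U, the base of miR-17-5p first). The number of mismatches allowed when the authors assigned reads is not given in the sources used here, so reads of such close pairs may have been shared between them.

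The libraries held 1513799 to 8926170 reads on miRNAs, with CIA_B 1 the smallest and MS_E 1 the largest, and 3 counts were worth 2.60 cpm in CIA_B 1 and 0.366 to 0.828 cpm in the others. The libraries of each group fell apart by their content of the muscle miRNA miR-1-3p, at 10115 to 15564 cpm in the lower and 80400 to 122962 cpm in the higher library. The muscle miRNAs miR-206-3p and miR-133b-3p were higher in the same library of every group. miR-133a-3p was higher in that library in CIA_B, MS_E and MS_A. It was lower there in PLA_E (70505 against 118939 cpm) and PLA_A (89171 against 139360 cpm), so not all muscle markers follow this division. Skeletal muscle markers (4 of 4 in the files, none at 0) summed to 83894 to 268478 cpm, so the libraries do hold muscle RNA. Epithelial markers (7 of 7 in the files) summed to 447 cpm in MS_E 1 and 33.7 to 135 cpm elsewhere, and leukocyte markers (5 of 6 in the files) to 14583 cpm in PLA_A 1 and 1638 to 3401 cpm elsewhere. Erythroid markers (3 of 4 in the files) summed to 17.4 to 88.6 cpm, with the highest value in MS_E 1. The endothelial list matched no name, since the files name its miRNA miR-126a, whose 3p arm stood at 773 to 3020 cpm. In such bulk samples fewer cells of a type and less RNA per cell cannot be told apart.

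The members spanned more than 2 orders of magnitude. By mean level over the 10 libraries the order was miR-92a-3p (947 cpm), miR-25-3p (794 cpm), miR-93-5p (249 cpm), miR-19b-3p (62.1 cpm), miR-106b-5p (32.5 cpm), miR-17-5p (29.4 cpm), miR-20a-5p (23.3 cpm), miR-19a-3p (5.27 cpm) and miR-18a-5p (3.55 cpm). The steps from miR-25-3p to miR-93-5p, from miR-93-5p to miR-19b-3p and from miR-20a-5p to miR-19a-3p held in 10 of 10 libraries. The other neighbours did not separate beyond the spread between libraries: miR-92a-3p exceeded miR-25-3p in 6 of 10 libraries and miR-106b-5p exceeded miR-17-5p in 6 of 10, while the remaining 3 steps held in 8 of 10. All mature arms are 21 to 23 bases long, so these levels need no correction for length, but the ligation steps of library preparation favour some sequences, and the order is one of read counts. Together the 9 members took 0.113% to 0.332% of the miRNA reads of a library.

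**Figure D1:**
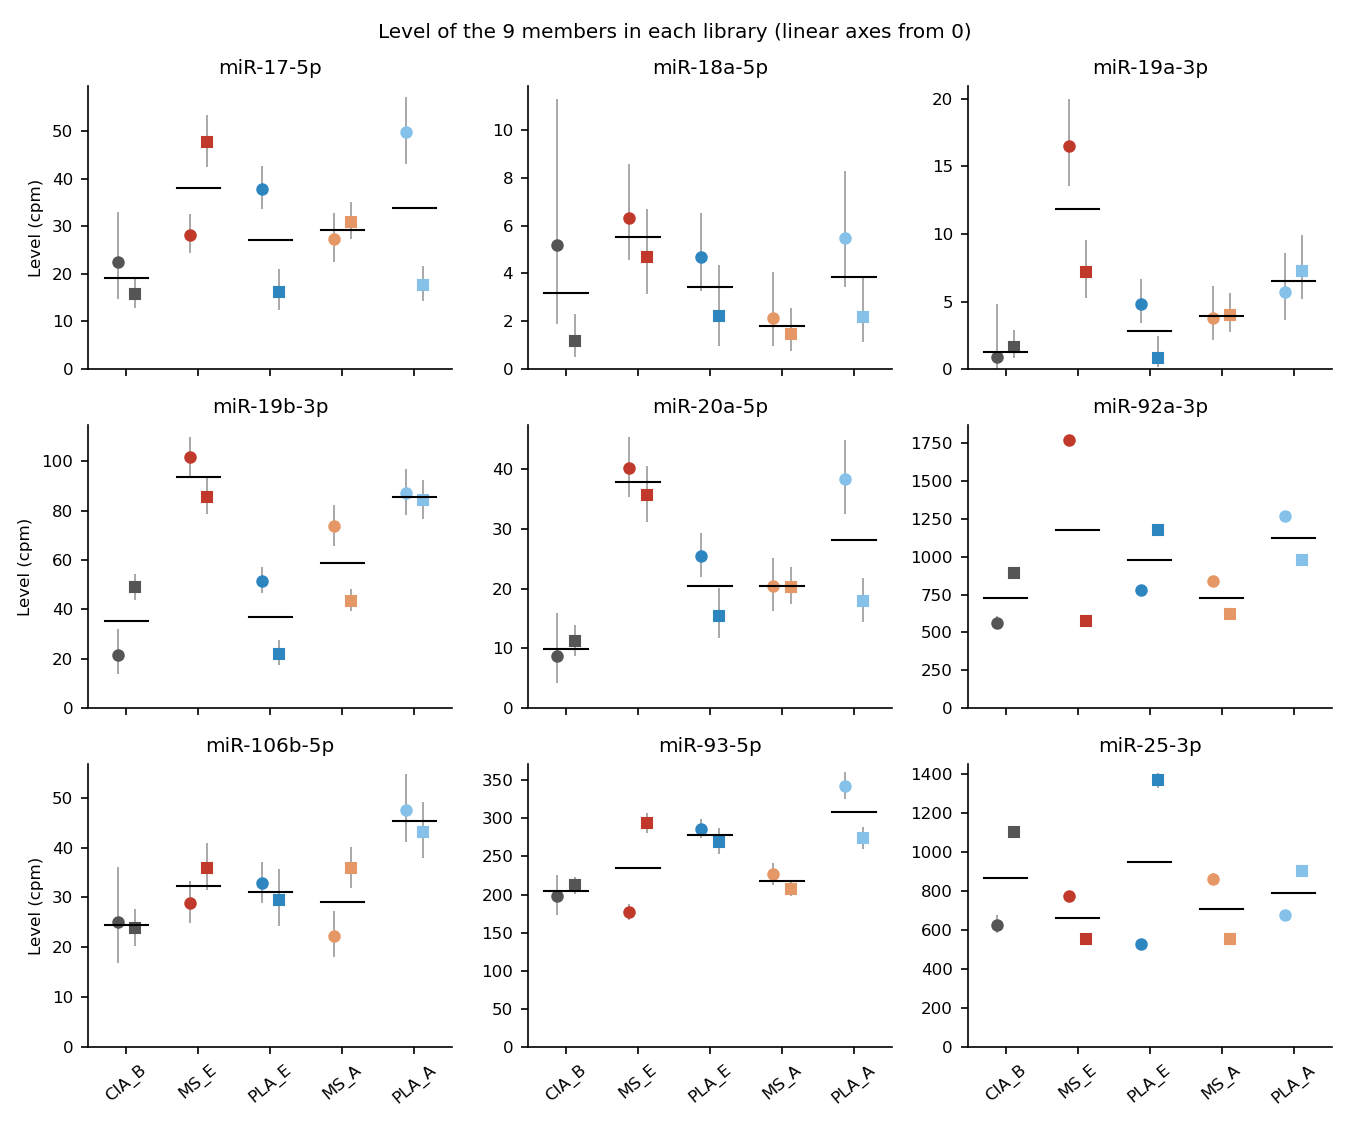
Level of each member in cpm (linear axes from 0) in the 10 libraries by group, with circles for library 1, squares for library 2, grey bars for exact 95% Poisson intervals (counting error only) and a black line at the group mean. Both MS_E libraries lie above both CIA_B libraries for miR-17-5p, miR-19a-3p, miR-19b-3p, miR-20a-5p and miR-106b-5p, and the libraries of miR-92a-3p and miR-25-3p spread widely within groups.

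miR-20a-5p, a miR-17 family arm of the miR-17/92 transcript, was the member with the most even rise 1 h after stimulation. Its level was 8.65 and 11.2 cpm in CIA_B 1 and 2, 40.1 and 35.6 cpm in MS_E, and 25.5 and 15.4 cpm in PLA_E. At 34 days it was 20.4 cpm in both MS_A libraries and 38.4 and 17.9 cpm in PLA_A. All 8 libraries sampled under therapy stood above both CIA_B libraries, and both MS_E libraries stood above both PLA_E libraries. Against CIA_B the fitted log2 fold change of MS_E was 1.88 (SE 0.53, unadjusted p = 0.00597, edgeR, Benjamini-Hochberg adjusted p = 0.373). The study called a miRNA changed when it moved more than 2-fold with a nominal p under 0.05, and miR-20a-5p stayed past both thresholds under all 10 alternatives and with any 1 of the 4 libraries left out, with fold changes of 1.68 to 2.08 in the latter. The library of each group with more miR-1-3p gave a log2 ratio of MS_E to CIA_B of 2.04 and the library with less gave 1.84.

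miR-19a-3p, the rarer of both miR-19 arms, showed the largest fold change of the members, at low counts. It had 1 and 11 counts in CIA_B, or 0.865 cpm (exact 95% Poisson interval 0.0219 to 4.82) and 1.62 cpm (0.807 to 2.89), and 107 and 46 counts in MS_E, or 16.5 cpm (13.5 to 19.96) and 7.18 cpm (5.26 to 9.58). PLA_E held 4.82 and 0.828 cpm, the latter from 3 counts, MS_A 3.80 and 4.02 cpm, and PLA_A 5.73 and 7.29 cpm. Thus MS_E, MS_A and PLA_A did not overlap CIA_B, whereas PLA_E did. Intervals here reflect counting error alone, and reads of 1 molecule are not independent of each other. The fitted log2 fold change of MS_E against CIA_B was 2.81 (SE 0.80, unadjusted p = 0.0065, edgeR, Benjamini-Hochberg adjusted p = 0.373). It passed the thresholds under all 9 alternatives in which the miRNA was fitted and with any 1 library left out, where it ranged from 2.02 without MS_E 1 to 3.29 without CIA_B 2.

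miR-19b-3p, the more abundant miR-19 arm, was read at 21.6 and 49.0 cpm in CIA_B, 102 and 85.7 cpm in MS_E and 51.7 and 22.1 cpm in PLA_E. At 34 days it was at 73.8 and 43.6 cpm in MS_A and 87.2 and 84.4 cpm in PLA_A. MS_E and PLA_A did not overlap CIA_B, and MS_A and PLA_E did. For MS_E against CIA_B the log2 fold change was 1.38 (SE 0.58, unadjusted p = 0.0409, edgeR, Benjamini-Hochberg adjusted p = 0.699). The call was lost without CIA_B 1 (0.88), without MS_E 1 (1.16) or without MS_E 2 (1.498), kept without CIA_B 2 (2.10), and kept under 5 of 10 alternatives, which do not include the replicate block (1.33). Per library there were 0.033 to 0.162 reads of miR-19a-3p for each read of miR-19b-3p, lowest in CIA_B 2 and highest in MS_E 1.

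miR-17-5p, the arm after which the cluster is named, was at 22.5 and 15.7 cpm in CIA_B, 28.2 and 47.6 cpm in MS_E and 37.9 and 16.3 cpm in PLA_E. MS_A held 27.3 and 31.0 cpm and PLA_A 49.8 and 17.7 cpm. The MS_E and MS_A libraries were above those of CIA_B, and each placebo group held 1 library between the CIA_B libraries and 1 above both. Its log2 fold change in MS_E against CIA_B was 0.99 (SE 0.64, edgeR, Benjamini-Hochberg adjusted p = 0.928), short of the thresholds. It was 0.57 without MS_E 2 and 1.27 without MS_E 1. Although miR-17-5p and miR-20a-5p share a seed and a cluster, the reads of miR-20a-5p per read of miR-17-5p ran from 0.385 in CIA_B 1 to 1.42 in MS_E 1.

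miR-18a-5p, the rarest member, was at 5.19 and 1.18 cpm in CIA_B, 6.33 and 4.68 cpm in MS_E and 4.69 and 2.21 cpm in PLA_E. MS_A held 2.13 and 1.46 cpm and PLA_A 5.48 and 2.19 cpm. With 6 counts in CIA_B 1 (exact 95% Poisson interval 1.90 to 11.3 cpm), no therapy group separated from CIA_B. The log2 fold change in MS_E was 0.93 (SE 0.77, edgeR, Benjamini-Hochberg adjusted p = 0.939), and it moved between 0.079 without CIA_B 2 and 1.91 without CIA_B 1, where it passed the thresholds.

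miR-92a-3p, the most abundant member, which restrains vessel growth, was at 564 and 890.0 cpm in CIA_B, 1773 and 577 cpm in MS_E and 782 and 1178 cpm in PLA_E. MS_A held 839 and 619 cpm and PLA_A 1269 and 976 cpm. Only PLA_A did not overlap CIA_B. The libraries of MS_E differed from each other by more than the means of any pair of groups, and the log2 fold change against CIA_B, 0.69 (SE 0.56, edgeR, Benjamini-Hochberg adjusted p = 0.939), turned to -0.41 without MS_E 1 and rose to 1.29, past the thresholds, without MS_E 2. Reads of miR-92a-3p per read of miR-20a-5p ranged from 16.2 in MS_E 2 to 79.6 in CIA_B 2.

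miR-106b-5p, a miR-17 family arm of the paralog cluster, was at 25.1 and 23.8 cpm in CIA_B, 28.9 and 35.9 cpm in MS_E and 32.8 and 29.5 cpm in PLA_E. MS_A held 22.3 and 35.8 cpm and PLA_A 47.6 and 43.2 cpm. Its PLA_A libraries were the highest of all, and MS_A alone overlapped CIA_B. The log2 fold change in MS_E was 0.40 (SE 0.43, edgeR, Benjamini-Hochberg adjusted p = 0.981).

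miR-93-5p, of the same family and cluster, was at 198 and 212 cpm in CIA_B, 177 and 294 cpm in MS_E and 286 and 269.5 cpm in PLA_E. MS_A held 227 and 208 cpm and PLA_A 343 and 274 cpm. Both placebo groups were above CIA_B and both stimulated groups overlapped it. In MS_E the log2 fold change was 0.20 (SE 0.40, edgeR, Benjamini-Hochberg adjusted p = 0.994), and it was -0.21 without MS_E 2.

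miR-25-3p, which shares its seed with miR-92a-3p, was at 628 and 1100 cpm in CIA_B, 773 and 553 cpm in MS_E and 530 and 1366 cpm in PLA_E. MS_A held 862 and 552 cpm and PLA_A 675 and 899.7 cpm. Every therapy group overlapped CIA_B, and in each group the library with more miR-1-3p was the lower (530 to 675 cpm against 773 to 1366 cpm). Of all miRNAs tested, 13.9% were lower in the library with more miR-1-3p in all 5 groups and 17.5% were higher, the latter including miR-17-5p and miR-106b-5p, so 3 of 9 members following this division is near the background. The fitted log2 fold change of miR-25-3p in MS_E was -0.38 (SE 0.54, edgeR, Benjamini-Hochberg adjusted p = 0.99), and 0.077 without CIA_B 2.

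At 1 h after mechanical stimulation 3 of the 9 members, miR-19a-3p, miR-19b-3p and miR-20a-5p, were called against CIA_B by the thresholds above, all of them higher, where 6.41% of all 359 miRNAs passed in either direction and 5.29% were higher. The members' median log2 fold change was 0.93 and that of all miRNAs 0.06. The 6 members of miR-17/92 were fitted at 0.69 to 2.81 and the 3 of miR-106b/25 at -0.38 to 0.40; the difference between the clusters was not tested. Without overlap between groups, 5 of 9 members were higher in MS_E, against 18.4% of all miRNAs, and no member was lower. No miRNA had an adjusted p under 0.05 by edgeR (23 had an unadjusted p under 0.05), nor by limma-voom, whereas DESeq2 gave 8 miRNAs in this comparison, none of them a member. The epithelial markers moved in the same comparison, with 4 of 6 tested markers higher and summed levels of 33.7 and 70.9 cpm in CIA_B and 447 and 119 cpm in MS_E (miR-200b-3p, miR-200c-3p and miR-429 were at 0 in CIA_B 1). All 5 tested leukocyte markers were fitted above 0 with a median of 1.02 and 1 of them, miR-223-3p, called higher, and the sums were 1648 and 1638 cpm in CIA_B and 3401 and 3054 cpm in MS_E. All 3 tested erythroid markers were fitted above 0 with a median of 0.89 and 1 of them, miR-451-5p, called higher, and the sums were 24.2 and 17.5 cpm in CIA_B and 88.6 and 24.4 cpm in MS_E. The part of these markers in the results was not tested. Without MS_E 1 miR-19a-3p (2.02) and miR-20a-5p (1.71) were past the thresholds and miR-19b-3p (1.16) was not.

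**Figure D2:**
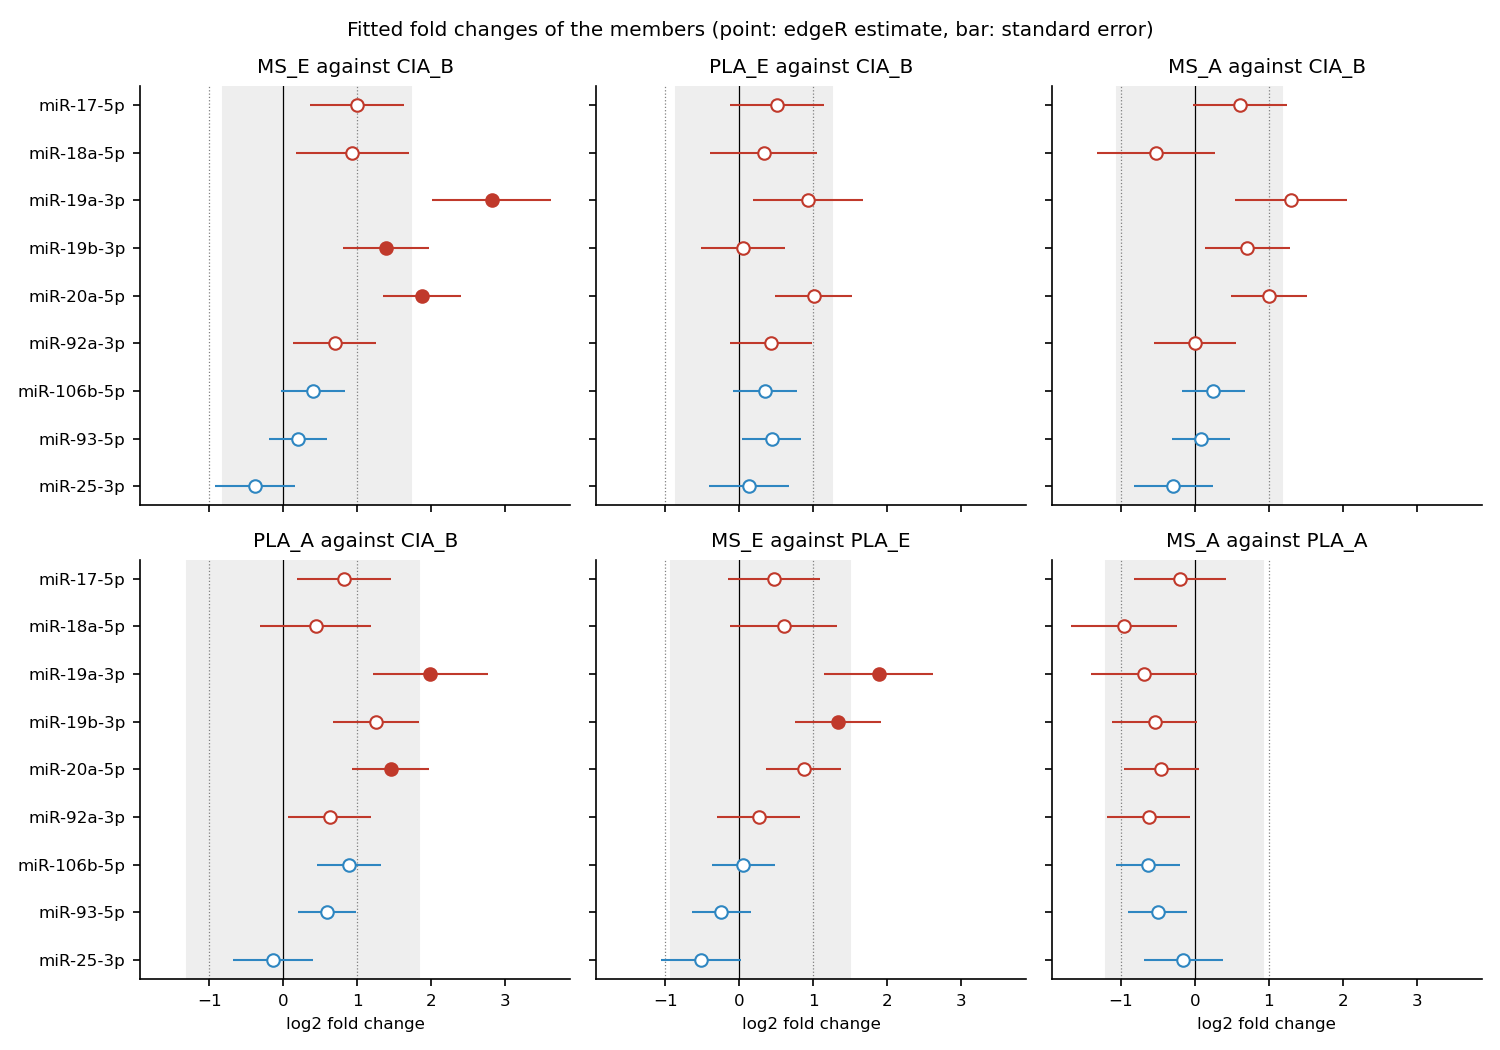
Fitted log2 fold change (edgeR, bars for the standard error) of each member in 6 comparisons, with miR-17/92 in red and miR-106b/25 in blue, filled points past the thresholds of the study, dotted lines at a 2-fold change and a grey band from the lowest to the highest 5% of all tested miRNAs. In MS_E against CIA_B the points run from -0.38 (miR-25-3p) to 2.81 (miR-19a-3p), and in MS_A against PLA_A all 9 lie below 0.

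**Figure D3:**
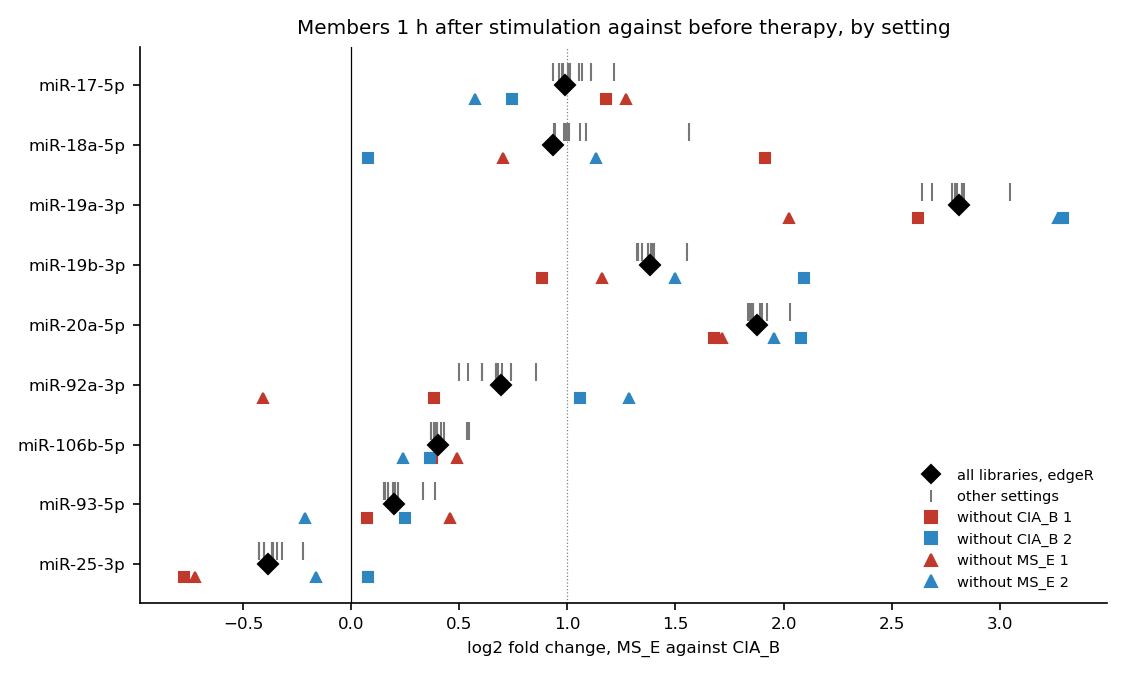
Log2 fold change of each member in MS_E against CIA_B with all libraries (black diamonds), under other settings (grey ticks) and with 1 library left out (coloured squares and triangles), with a dotted line at a 2-fold change. miR-20a-5p stays between 1.68 and 2.08 when a library is left out, whereas miR-92a-3p spans -0.41 to 1.29.

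At 1 h after placebo no member passed the thresholds against the same CIA_B libraries, where 0.557% of all miRNAs did (2 miRNAs, the same count at an unadjusted p under 0.05 by edgeR). All 9 members were fitted above 0, with a median of 0.43 and a range of 0.05 (miR-19b-3p) to 1.00 (miR-20a-5p), and 3 of 9 were higher without overlap, against 11.7% of all. The members' median was 0.27 without PLA_E 1 and 0.59 without CIA_B 2. With library sizes alone for scaling it was 0.79, and that of all miRNAs was 0.41. The tested leukocyte, erythroid and epithelial markers were all fitted above 0 as well, with medians of 0.96, 0.28 and 0.75 and no call, and their part was not tested. Compared directly at 1 h, MS_E exceeded PLA_E for 2 members, where 3.9% of all miRNAs passed in either direction and 3.06% were higher. miR-19a-3p had a log2 fold change of 1.89 (SE 0.74) and miR-19b-3p of 1.33 (SE 0.58), both with an adjusted p of 0.832 (edgeR, Benjamini-Hochberg). The miR-19a-3p call was lost without MS_E 1 (1.12) or PLA_E 2 (1.27), and the miR-19b-3p call without MS_E 1 (1.13), MS_E 2 (1.45) or PLA_E 2 (0.86). Of the epithelial markers 2 of 6 tested were higher in this comparison as well, with sums of 108 and 57.9 cpm in PLA_E, and their part was not tested. Both calls were lost when library sizes alone were used for scaling, at 1.35 and 0.93, a scaling that shifted the median of all miRNAs in this comparison from 0.03 to -0.23. Both were also lost with only the libraries compared (2.01 and 1.43), and miR-19b-3p, kept under 4 of 10 alternatives, was lost with the replicate block (1.37) as well. Without overlap 3 of 9 members were higher in MS_E, namely both miR-19 arms and miR-20a-5p, against 16.4% of all miRNAs. miR-20a-5p, not past the thresholds, was fitted at 0.87, and the 3 members of miR-106b/25 at -0.52 to 0.05.

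After 34 days the placebo arm, and not the stimulated arm, held members past the thresholds against CIA_B, though the difference between the arms was not past them for any member. In PLA_A they were 2 of 9, where 6.96% of all miRNAs passed and 4.74% were higher. miR-19a-3p was fitted at a log2 fold change of 1.99 (SE 0.78) and miR-20a-5p at 1.45 (SE 0.52), both with an adjusted p of 0.543 (edgeR, Benjamini-Hochberg). The miR-19a-3p call was lost with any 1 of the 4 libraries left out, at 1.68 to 2.47, and that of miR-20a-5p without CIA_B 1 (1.18), CIA_B 2 (1.66) or PLA_A 1 (0.80). The members' median was 0.82 and that of all miRNAs 0.11, and 6 of 9 members were higher without overlap, against 20.9% of all. Leukocyte markers moved in this comparison too, with 3 of 5 tested higher and sums of 1648 and 1638 cpm in CIA_B and 14583 and 2175 cpm in PLA_A. Of the erythroid markers 2 of 3 tested, miR-144-3p and miR-144-5p, were higher, with a list median of 1.499 and sums of 42.6 and 67.4 cpm in PLA_A. The 6 tested epithelial markers were all fitted above 0 with a median of 1.39 and no call, and their sums, 135 and 115 cpm in PLA_A, were above the 33.7 and 70.9 cpm of CIA_B. The part of these markers in the result was not tested. Without PLA_A 1, which holds the highest leukocyte sum, the members' median was 0.43.

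In MS_A against CIA_B no member passed, where 1.11% of all miRNAs did, and the same 4 miRNAs had an unadjusted p under 0.05 by edgeR. The members' median was 0.25, miR-19a-3p (1.30) and miR-20a-5p (1.00) were the highest, and 3 of 9 members were higher without overlap, against 16.2% of all. With 1 library left out the members' median ran from 0.12 (without MS_A 2) to 0.37 (without CIA_B 2). All tested leukocyte, erythroid and epithelial markers were fitted above 0 too. Their medians were 1.10 for 5 leukocyte markers (miR-223-3p called higher), 1.23 for 3 erythroid and 0.92 for 6 epithelial markers. Of the skeletal muscle markers 3 of 4 were fitted above 0, with a median of 0.26. The part of these markers was not tested. In MS_A against PLA_A no member passed either, where 1.95% of all miRNAs did (7 miRNAs, also 7 at an unadjusted p under 0.05 by edgeR). All 9 members were fitted below 0, from -0.96 (miR-18a-5p) to -0.15 (miR-25-3p), with a median of -0.55 beside -0.02 for all miRNAs. Without overlap 6 of 9 members were lower in MS_A, against 12.5% of all. Of the leukocyte markers 2 of 5 tested were lower in MS_A, where they summed to 2434 and 2619 cpm, and their part was not tested. Scaling by library size alone shifted the median of all miRNAs in this comparison to -0.34.

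From 1 h to 34 days no member passed in either arm, where 3.9% of all miRNAs passed in the stimulated arm and 2.79% in the placebo arm (14 and 10 miRNAs, the same counts at an unadjusted p under 0.05 by edgeR). With the replicate block, only the libraries compared or the miR-1-3p division as a term, 1 member passed in the stimulated arm. With limma-voom 1 member passed in the placebo arm. In the stimulated arm 8 of 9 members were fitted below 0, with a median of -0.67, and miR-18a-5p, miR-19a-3p, miR-19b-3p and miR-20a-5p were lower in both MS_A libraries than in both MS_E libraries, against 15.6% of all miRNAs. In the placebo arm 8 of 9 were fitted above 0, with a median of 0.31, and miR-19a-3p, miR-19b-3p and miR-106b-5p were higher without overlap, against 15.3% of all. In PLA_A 2 miR-17-5p, miR-18a-5p, miR-20a-5p, miR-92a-3p, miR-93-5p and miR-25-3p were below their PLA_E means, so this median rests mostly on PLA_A 1. The difference between these time courses was tested as an interaction of arm and time, where 2 of 9 members passed and 3.34% of all miRNAs did. It was -2.57 for miR-19a-3p (SE 1.03, unadjusted p = 0.0333) and -1.88 for miR-19b-3p (SE 0.81, unadjusted p = 0.0452), each with an adjusted p of 0.993 (edgeR, Benjamini-Hochberg). The miR-19a-3p call was lost in 5 of the 8 fits without 1 library and that of miR-19b-3p in all of them except that without PLA_E 1. The interactions in these fits ran from -4.02 to -1.81 for miR-19a-3p and from -2.61 to -1.42 for miR-19b-3p. Markers moved here too: in the interaction 1 of 6 epithelial markers (miR-141-3p) and 1 of 5 leukocyte markers (miR-142-5p) were called lower and none of either list, nor of the 3 erythroid markers (median -0.58, no call), was fitted above 0, while 2 of 6 epithelial markers were lower in MS_A than in MS_E and 2 of 5 leukocyte markers higher in PLA_A than in PLA_E, where all 3 erythroid markers were fitted above 0 (median 1.202, no call). Their part was not tested. All 6 members of miR-17/92 were fitted below 0 in the interaction, and in miR-106b/25 miR-25-3p (0.36) was above it.

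As a ratio to CIA_B, the seed family whose summed level moved most in MS_E and PLA_A was the miR-19 family. In PLA_E and MS_A it was not. The miR-19 family summed to 36.5 ± 19.9 cpm (SD, n = 2) in CIA_B, 106 ± 18.04 cpm in MS_E, 39.7 ± 23.8 cpm in PLA_E, 62.6 ± 21.2 cpm in MS_A and 92.3 ± 0.855 cpm in PLA_A. The miR-17 family, most of it miR-93-5p, summed to 259 ± 5.91 cpm in CIA_B, 344 ± 98.0 cpm in MS_E, 357 ± 36.7 cpm in PLA_E, 296 ± 1.29 cpm in MS_A and 416 ± 88.9 cpm in PLA_A. For the family of miR-92a-3p and miR-25-3p the sums were 1591 ± 564 cpm in CIA_B, 1838 ± 1002 cpm in MS_E, 1928 ± 871 cpm in PLA_E, 1436 ± 375 cpm in MS_A and 1910 ± 47.9 cpm in PLA_A. The miR-18 family, of which miR-18a-5p is the only member here, stood at 3.18 ± 2.84 cpm in CIA_B, 5.51 ± 1.16 cpm in MS_E, 3.45 ± 1.76 cpm in PLA_E, 1.799 ± 0.475 cpm in MS_A and 3.83 ± 2.33 cpm in PLA_A. Families were compared by these sums alone, without a test. The miR-17 family was above both CIA_B libraries in all 8 libraries sampled under therapy, the miR-19 family in those of MS_E and PLA_A and in MS_A 1 and PLA_E 1, and the most abundant family overlapped CIA_B in all 4 groups under therapy.

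Counts of miR-92a-3p are listed at both of its hairpins, which share the mature arm (in capitals) and the 2 bases before it but no base after it:
rno-mir-92a-1: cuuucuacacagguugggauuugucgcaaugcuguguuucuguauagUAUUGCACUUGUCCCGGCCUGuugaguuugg
rno-mir-92a-2: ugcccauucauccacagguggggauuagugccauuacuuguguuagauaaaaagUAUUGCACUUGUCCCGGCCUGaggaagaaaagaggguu
Reads at mir-92a-2, the copy on chrX, were 8.77% to 18.3% of those at mir-92a-1, of miR-17/92, in 9 libraries, and in PLA_A 1, with 1720 reads listed at mir-92a-2 and 5095 at mir-92a-1, the ratio was 33.8%. On the cpm scale mir-92a-2 stood at 428 in that library and at 91.6 to 156 in the others. PLA_A 2 held 142.7 cpm, so the high value was not shared by its group. The passenger arm of that hairpin, miR-92a-2-5p, had 0 counts in all 10 libraries, PLA_A 1 included. miR-92a-1-5p, of the chr15 copy, was at its highest there (59 counts, 14.7 cpm). Of other arms from the chrX cluster, miR-363-3p (42.1 cpm) and miR-17-2-3p (4 counts, 0.996 cpm) were also highest in PLA_A 1. miR-20b-5p had 9 counts there and 19 in MS_E 1, and miR-19b-2-5p had 0 in every library. The origin of the high value was not tested. A read that ends inside the shared stretch may be counted at both hairpins, and the deposited counts do not separate these. For miR-17-5p the second copy had 80.4% to 89.6% of the reads of the first, lower in all 10 libraries, and for miR-19b-3p 100% to 101%. The passenger arms of the miR-17-5p copies, listed under separate names, had 2 to 48 counts for miR-17-1-3p and 0 to 4 for miR-17-2-3p.

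**Figure D4:**
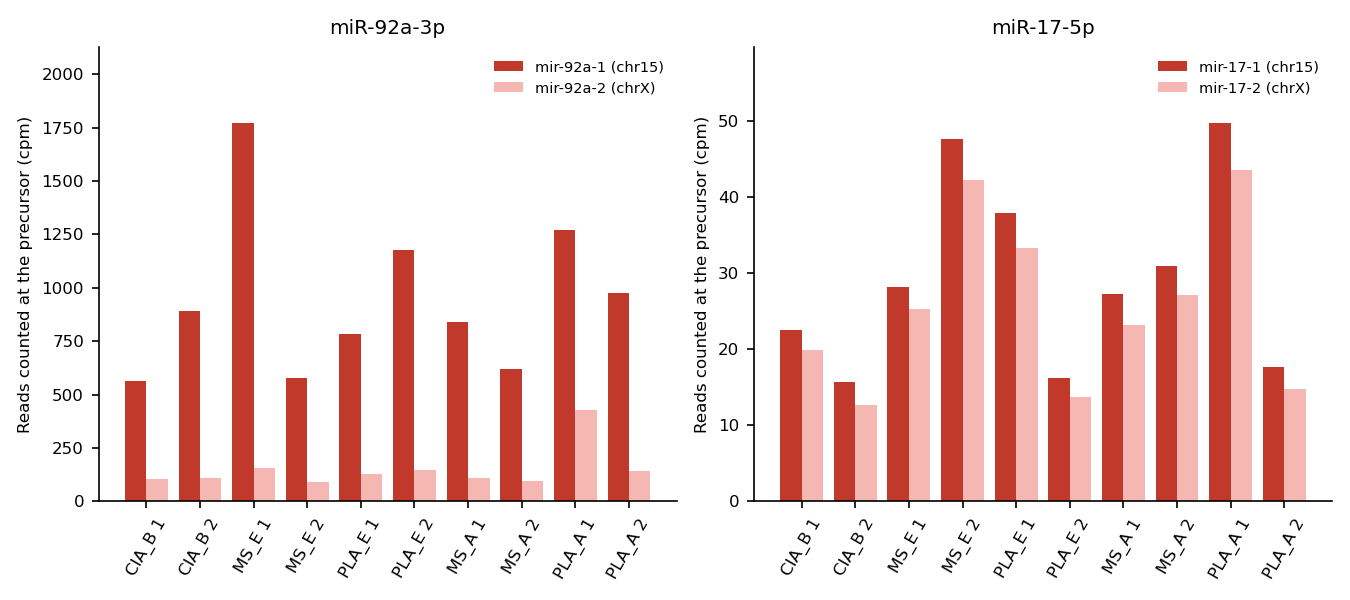
Reads counted at the precursors of miR-92a-3p and miR-17-5p on chr15 (dark bars) and chrX (light bars), in cpm (linear axes from 0), in each library. For miR-92a-3p the chrX bar is 91.6 to 156 cpm except in PLA_A 1, where it is 428 cpm, whereas for miR-17-5p the chrX bar is 80.4% to 89.6% of the chr15 bar.

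Of the 6 seed relatives listed, 4 are in the files and 3 were tested. miR-363-3p, of the related cluster on chrX, was at 38.3 cpm in MS_E 1 and 42.1 cpm in PLA_A 1 and at 3.17 to 8.98 cpm in the other libraries. It was lower in MS_A than in PLA_A by a log2 fold change of -2.53 (SE 0.94) and lower than in MS_E by -2.38 (SE 0.93), with adjusted p of 0.999 and 0.906 (edgeR, Benjamini-Hochberg). These calls were lost without PLA_A 1 (-0.97) and without MS_E 1 (-0.68), respectively, and also without MS_A 1 (-2.74 in both) or MS_A 2 (-2.23 in both), and under limma-voom (-2.18 and -2.04). In the interaction it was fitted at -4.16 (SE 1.30, edgeR, Benjamini-Hochberg adjusted p = 0.993) and no longer passed without MS_E 1 (-2.37) or PLA_A 1 (-2.73). miR-20b-5p, of the same chrX cluster, had 19 counts in MS_E 1, 9 in PLA_A 1 and at most 4 elsewhere and was not tested. miR-92b-3p was at 101 cpm in MS_E 1 and 3.46 to 23.4 cpm elsewhere, and its call in MS_A against MS_E, -3.36 (SE 1.39, edgeR, Benjamini-Hochberg adjusted p = 0.906), turned to 0.39 without MS_E 1, was lost with the replicate block (-2.65) and was kept under 4 of 10 alternatives. miR-32-5p was at 0.865 and 1.47 cpm in CIA_B and 8.72 and 4.74 cpm in PLA_A, a log2 fold change of 2.11 (SE 0.70, edgeR, Benjamini-Hochberg adjusted p = 0.543) that kept its call only without PLA_A 2 when 1 library was left out. The fold changes with 1 library left out were 1.61 to 2.51.

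Among the passenger arms, the strands usually discarded, 12 of 13 listed are in the files and 5 were tested. miR-92a-1-5p alone passed in any comparison, in PLA_A against CIA_B (1.58, SE 0.67, edgeR, Benjamini-Hochberg adjusted p = 0.543), with 14.7 cpm in PLA_A 1 and 2.60 to 5.87 cpm in the other libraries, and its fold change was 0.47 without PLA_A 1. The call was kept under 3 of 9 alternatives and lost under limma-voom (1.31), DESeq2 (1.56) and the replicate block (1.41), among others. The call was for 1 of the 5 tested passenger arms, where 6.96% of all miRNAs passed in that comparison, and 0 of 5 passed 1 h after stimulation. miR-106b-3p was as abundant as the main arm, with 0.565 to 2.5 reads per read of miR-106b-5p, highest in CIA_B 2 and lowest in PLA_A 1.

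Across the 10 libraries, which differ in depth, group and miR-1-3p content, log2 levels of the members were related to unequal degrees. Pearson's r was 0.911 for miR-19a-3p with miR-19b-3p and 0.843 for miR-19a-3p with miR-20a-5p, but -0.135 for miR-17-5p with miR-92a-3p, both of which have a second copy on chrX, and -0.789 for miR-17-5p with miR-25-3p. The mean of the members' centred log2 levels was lowest in CIA_B 1 and 2 (-0.61 and -0.46) and highest in MS_E 1 (0.58) and PLA_A 1 (0.57). The 5 tested miRNAs outside the set that followed this mean most closely were miR-200c-3p (r = 0.865), miR-32-5p (0.858), miR-218a-5p (0.849), miR-205 (0.834) and miR-17-1-3p (0.833), the last the passenger arm of miR-17-5p and miR-200c-3p and miR-205 from the epithelial list. In CIA_B 1 miR-200c-3p had 0 counts, miR-32-5p had 1 and miR-17-1-3p had 2, so their r rests partly on very low counts. miR-205 and miR-218a-5p stood no lower than 17.3 and 11.2 cpm in any library. All coefficients given here describe 10 libraries and were not tested.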

How the data were processed

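The authors sequenced TruSeq small RNA libraries on a HiSeq, demultiplexed with CASAVA 1.8, trimmed adapters, discarded reads under 18 bases, aligned to rn4 and the rat entries of miRBase 18 and counted with miRDeep2. The deposited read counts are whole numbers per mature miRNA and precursor, not normalized, and the largest count over precursors was used. The submitters' processing notes also name Bowtie. A series-wide table was left out, since its 20 value columns carry names found in no label.

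TMM factors and quasi-likelihood tests were computed with edgeR 4.0.16 (R 4.3.3) over all 10 libraries in 1 fit. Thresholds were those of the study, which used limma-voom, and Benjamini-Hochberg adjustment ran over all 359 miRNAs, which hold 99.97% of the reads. Levels are cpm on TMM-scaled library sizes, with a prior count of 2 on the log2 scale. The smallest p an exact two-sided permutation test of 2 against 2 libraries allows is 0.333, so none was made. The fit was tested on simulated data. Every member was named, with related miRNAs named when called or needed to read a member, and the 5 miRNAs most like the members. The members and lists were chosen with earlier results of these data known. Alternatives were limma-voom 3.58.1, DESeq2 1.42.0, other scaling, filters, samples, the replicate block and summed precursors. Sequences are from RefSeq (GRCr8), and coordinates of rn4 were not used. Figures were drawn with matplotlib 3.10.9 under Python 3.11.15, and tables made with scipy 1.17.1, numpy 2.4.6 and pandas 2.3.3.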

Additional observations from a re-analysis of the deposited data

Results flagged for a closer look

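The change from 1 h to 34 days was past the nominal thresholds for a difference between the arms in 2 members. For miR-19a-3p the stimulated arm went from a mean of 11.8 ± 6.60 cpm (SD, n = 2) to 3.91 ± 0.160 cpm while the placebo arm went from 2.83 ± 2.83 cpm to 6.51 ± 1.11 cpm, an interaction of -2.57 on the log2 scale. For miR-19b-3p the means went from 93.8 ± 11.4 cpm to 58.7 ± 21.3 cpm under stimulation and from 36.9 ± 21.0 cpm to 85.8 ± 1.96 cpm under placebo, an interaction of -1.88. Both had an adjusted p of 0.993 (edgeR, Benjamini-Hochberg), and neither passed with library sizes alone, where the interactions were -2.29 and -1.88. With 1 library left out miR-19a-3p passed in 3 of 8 fits and miR-19b-3p in 1 of 8, with interactions of -4.02 to -1.81 and -2.61 to -1.42. miR-19b-3p did not pass with the replicate block (-1.95).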

How the results depend on the processing

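The count of members past the thresholds was 0 under every setting run for PLA_E against CIA_B, MS_A against CIA_B and MS_A against PLA_A, and 2 or 3 for MS_E against CIA_B, single libraries left out included. For PLA_A against CIA_B it went from 2 to 1 with a mean of at least 100 counts or only the libraries compared, to between 0 and 1 with a library left out, and to 3 with the miR-1-3p division as a term, an alternative chosen after the data were seen. For MS_E against PLA_E it went from 2 to 1 with summed precursors, DESeq2's size factors, no filter or a mean count of 100 or more, to 0 with library sizes alone or only the libraries compared, and to between 0 and 2 with a library left out. For MS_A against MS_E it went from 0 to 1 with only the libraries compared or with that division as a term, and to between 0 and 2 with a library left out. For PLA_A against PLA_E it was 1 with limma-voom and between 0 and 2 with a library left out. The interaction gave 1 with DESeq2's size factors, no filter or a mean count of 100 or more, 0 with library sizes alone, and between 0 and 2 with a library left out. The higher mean filter removes miR-18a-5p and miR-19a-3p, and leaving out a library leaves a group of 1 that is assumed to vary like the others; the cause of the other changes was not tested. Of the 21 single fold changes followed (all members in MS_E against CIA_B, and called ones elsewhere), signs turned for 4, each when a library was left out, with ranges of -0.41 to 1.29 for miR-92a-3p, -0.21 to 0.46 for miR-93-5p and -0.77 to 0.077 for miR-25-3p in MS_E against CIA_B, and -4.29 to 0.39 for miR-92b-3p in MS_A against MS_E. No member reached an adjusted p under 0.05 under any setting (0 of 9).

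The replicate numbers did not pair the libraries, as deviations of same-numbered libraries correlated from -0.544 to 0.587. With the replicate number as a block the members past the thresholds were 2 for MS_E against CIA_B, 1 for MS_E against PLA_E, 1 for MS_A against MS_E and 1 for the interaction, and the other counts did not move. Depth limits miR-18a-5p and miR-19a-3p most, since CIA_B 1 gave 6 and 1 counts for them.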
